A study of Mus musculus with 6 samples.

Results

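The joining chain gene Jchain and 7 factors or markers of antibody-secreting cells were followed in leukemic mouse pre-B cells, to ask whether the higher Jchain signal after Blnk was added came with a plasma-cell programme. The 8 genes (Jchain, Ell2, Xbp1, Prdm1, Tnfrsf17, Sdc1, Creb3l2 and Mzb1) are a small set out of 19938 genes measured. Jchain was chosen by its difference between Blnk and pMIG samples in these same arrays, where it had the second largest rise of all genes. The other members were chosen by function, with their values in this comparison already known. The difference between the groups is therefore given for all 8 as a description, with no p-value. Which members were called in the fit across all genes is listed, and nothing is read from their count. Each gene was read by exactly 1 probe that names no other gene, and all 8 entered the fit, which had no filter on low values.

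Cells of 2 transduction groups were compared: cells that received Blnk (3 samples, also labelled Slp65) and cells that received pMIG, an empty retroviral vector carrying GFP (3 samples). All 6 samples shared the rest of their description: pre-B cells that BCR-ABL1, the fusion tyrosine kinase of a common form of acute leukemia, had transformed, from mice of the Balb/c strain aged 4 weeks and labelled as knockout for Blnk. At 5 days after transduction the GFP-positive cells were sorted, and total RNA was hybridised to 1 Affymetrix array per sample. The labels do not say whether samples of a group were separate cultures, so p-values measure a spread between samples that may be technical only. Nor do the labels say how many transformed lines or mice stand behind the cells.

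Median intensity lay between 69.0 and 70.0 on Blnk arrays and between 67.0 and 69.0 on pMIG arrays. The Blnk probe read 2714, 3342 and 3022 in Blnk samples and 972, 926 and 1013 in pMIG samples, so the groups did not overlap for the added gene. The sources used here do not say whether the probe reads the part removed in the knockout. Over all genes 2.51% rose and 1.10% fell by limma. Of 10 pre-B markers measured, 1 rose and 1 fell (2 and 3 at an unadjusted p under 0.05). Vpreb1, a surrogate light chain component, was the one that fell, at 1090 ± 116 in Blnk samples and 1746 ± 122 in pMIG samples (SD, n = 3 each; log2 fold change -0.68, limma adjusted p = 0.00976). Igll1, its partner, averaged 9221 ± 222 in Blnk samples and 10485 ± 350 in pMIG samples (SD, n = 3 each; limma adjusted p = 0.227). Cd79a, which signals for the pre-B receptor, rose, with means of 6126 ± 227 in Blnk samples and 4943 ± 53.8 in pMIG samples (SD, n = 3 each; log2 fold change 0.31, limma adjusted p = 0.0468), and it was no longer called when any 1 array was left out, after quantile normalization or with arrays centred on their medians. Vpreb1 was not called without pMIG 2 or pMIG 3. The recombination genes Rag1 and Dntt were dim, with means of 24.0 to 31.3 in Blnk samples and 24.3 to 29.7 in pMIG samples, below the array medians.

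When a mature B cell becomes an antibody-secreting cell, IRF4 and the repressor PRDM1 (Blimp-1) switch off B-cell genes such as Pax5, and XBP1, spliced by the stress sensor IRE1 (Ern1), enlarges the secretory pathway. ELL2 is an elongation factor that favours the secreted form of immunoglobulin heavy chain mRNA, MZB1 is a chaperone of the endoplasmic reticulum that aids antibody assembly, and the J chain links the units of secreted IgM and IgA. Mature plasma cells also carry the surface markers SDC1 (CD138) and TNFRSF17 (BCMA). In B cells PAX5 holds down both Jchain and Xbp1.

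The sequences before the start sites of the 3 members with the widest difference are shown because these members were higher together in Blnk samples. Each is the RefSeq sequence of the 250 bases before the start, on the gene's strand in build GRCm38.p6: Jchain at chr5:88527898-88528147 (minus strand), Ell2 at chr13:75707234-75707483 (plus strand) and Xbp1 at chr11:5520391-5520640 (plus strand). Capitals mark a cAMP response element, TGACGTCA, which factors of the CREB and ATF families bind.
Jchain: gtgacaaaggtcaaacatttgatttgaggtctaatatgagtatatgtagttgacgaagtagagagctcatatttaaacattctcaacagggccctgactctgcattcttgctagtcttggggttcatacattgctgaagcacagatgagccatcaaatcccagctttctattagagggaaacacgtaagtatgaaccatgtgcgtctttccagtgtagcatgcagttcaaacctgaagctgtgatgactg
Ell2: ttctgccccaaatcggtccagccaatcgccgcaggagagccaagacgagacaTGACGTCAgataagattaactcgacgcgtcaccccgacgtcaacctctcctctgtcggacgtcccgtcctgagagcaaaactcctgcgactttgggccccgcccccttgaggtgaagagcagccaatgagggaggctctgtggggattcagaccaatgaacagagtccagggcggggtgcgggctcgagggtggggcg
Xbp1: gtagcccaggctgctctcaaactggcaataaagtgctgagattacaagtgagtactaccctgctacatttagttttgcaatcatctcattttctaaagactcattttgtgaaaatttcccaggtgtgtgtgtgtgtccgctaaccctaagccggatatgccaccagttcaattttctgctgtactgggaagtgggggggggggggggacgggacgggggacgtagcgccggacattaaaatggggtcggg

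The element stood 198 bases before the Ell2 start, and 1.55% of 32851 promoter windows of this length held it. Windows on chromosome 18, where Mzb1 lies, were left out of the search and of the 32851. That left windows for 7 of the 8 members, and the 6 besides Ell2 did not hold these letters. The unfolded-protein-response element TGACGTGG, the octamer ATTTGCAT and GAAAGTGA, a core of the PRDM1 motif, were searched on both strands as well. These were found in none of the members' windows, and in 0.563%, 1.6% and 1.21% of all windows searched. GC content of the 3 windows shown was 42.0% for Jchain, 61.2% for Ell2 and 50.4% for Xbp1.

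Jchain, the secreted linker of polymeric antibodies, had intensities of 322, 462 and 522 in Blnk samples, against 30, 46 and 39 in pMIG samples. Every Blnk sample was several times above every pMIG sample, and within the Blnk samples the first was the lowest. The means were 435 ± 103 in Blnk and 38.3 ± 8.02 in pMIG (SD, n = 3 each), a difference of 3.50 on the log2 scale (SE 0.21) or 11.3-fold. In pMIG samples the probe lay below the array median of all probes, so the low end of this ratio rests on dim values. In RNA from bulk samples, more cells with the transcript and more transcript per cell cannot be told apart.

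Ell2, the elongation factor, read 947, 858 and 870 in Blnk samples and 454, 508 and 499 in pMIG samples. The groups did not overlap, and the highest Blnk sample for Ell2 was the first, which was the lowest for Jchain. The log2 difference was 0.87 (SE 0.08), or 1.83-fold.

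Xbp1, the transcription factor of the secretory state, read 685, 629 and 664 in Blnk samples, against 484, 530 and 471 in pMIG samples. The groups were again apart, by a smaller step, with a log2 difference of 0.41 (SE 0.08) or 1.33-fold. The array gives 1 value for Xbp1 and does not tell its spliced from its unspliced mRNA.

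Mzb1, the chaperone, was bright in every sample, at 4524, 4334 and 4742 in Blnk samples and 3581, 3700 and 3641 in pMIG samples. The groups did not overlap and the difference was small, 0.32 on the log2 scale (SE 0.07) or 1.24-fold. Mzb1 signal was thus already high in the samples without added Blnk.

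**Figure D1:**
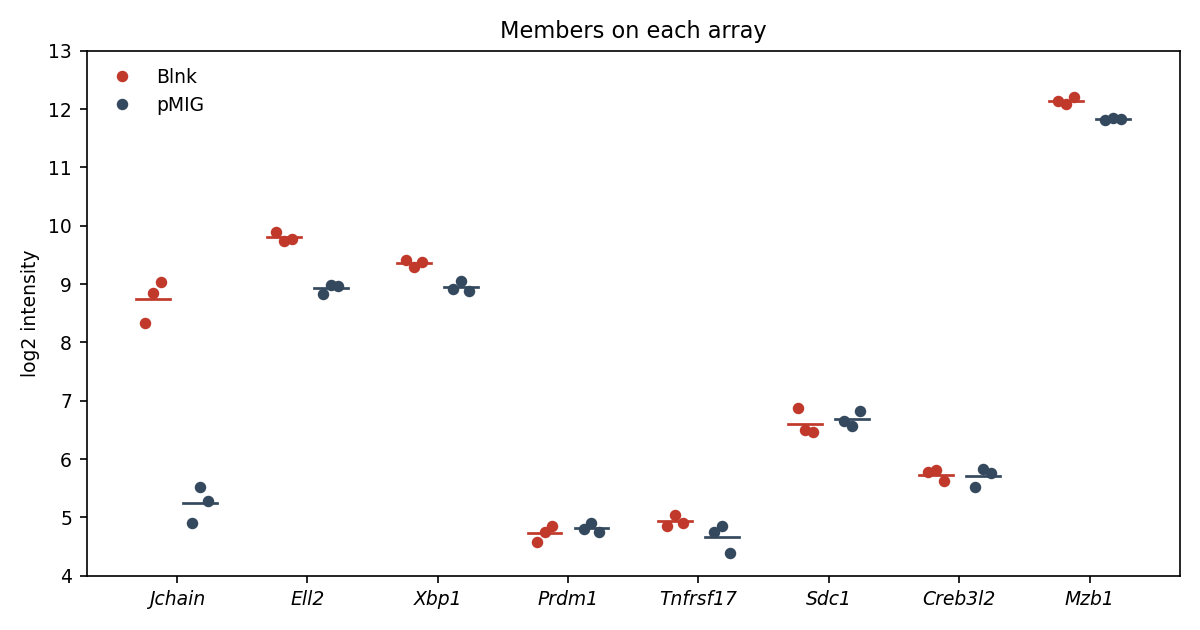
Log2 intensity (vertical axis) of the 8 members (horizontal axis) on each array. Points are single samples, Blnk on the left of each gene and pMIG on the right, and lines are group means. Jchain, Ell2, Xbp1 and Mzb1 have Blnk samples that all lie above the pMIG samples, a separation in this direction that 11.8% of all genes share, and the other 4 genes overlap.

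Prdm1, the repressor that drives plasma-cell differentiation, read 24, 27 and 29 in Blnk samples and 28, 30 and 27 in pMIG samples. All 6 values were below the array medians and the groups overlapped, with a log2 difference of -0.09 (SE 0.09, 95% interval -0.30 to 0.12). At such levels 1 unit of intensity is a visible step, because the deposited values are whole numbers, and no detection call comes with them.

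Tnfrsf17, the receptor BCMA for BAFF and APRIL, read 29, 33 and 30 in Blnk samples and 27, 29 and 21 in pMIG samples. All these values were below the array medians, as for Prdm1. The groups touched at 29, and the log2 difference was 0.27 (SE 0.13, 95% interval -0.02 to 0.56). Sdc1, the proteoglycan CD138, read 117, 90 and 88 in Blnk samples and 101, 95 and 113 in pMIG samples. The Sdc1 values of the groups were interleaved, with a log2 difference of -0.08 (SE 0.12, 95% interval -0.36 to 0.21). Creb3l2, a membrane-bound transcription factor of the secretory pathway, read 55, 56 and 49 in Blnk samples and 46, 57 and 54 in pMIG samples. The Creb3l2 values were below the array medians as well. Its difference was 0.03 (SE 0.10, 95% interval -0.20 to 0.26) and lay at -0.01 after quantile normalization, and at -0.0045 with arrays centred on their medians.

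**Figure D2:**
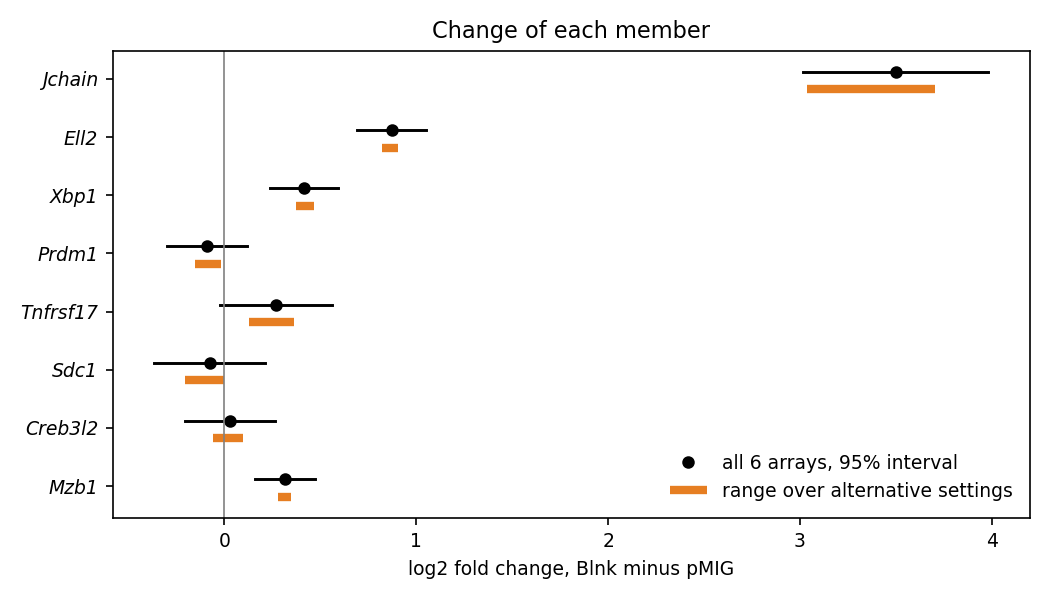
Log2 fold change (horizontal axis, Blnk minus pMIG) of each member (vertical axis). Black points and lines are the difference and its 95% interval over all 6 arrays, and orange bars are the range over the alternative settings. Jchain stands at 3.50, Ell2 at 0.87, Xbp1 at 0.41 and Mzb1 at 0.32, and the other 4 lie between -0.09 and 0.27.

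In the fit across all genes (limma, Benjamini-Hochberg adjusted p under 0.05), 720 genes were called, 3.61% of those tested. Of the 8 members, 4 were called, all higher in Blnk samples (Jchain, Ell2, Xbp1 and Mzb1), where 2.51% of all genes were called higher and 1.10% lower. Since the members were chosen with this contrast in view, nothing is read from that count. The same 4 members had Blnk samples all above the pMIG samples, which held for 11.8% of all genes. The number of members called was 3 without pMIG 2 and 2 without any other 1 array. Jchain and Ell2 were called with each array left out, Xbp1 only without pMIG 2, and Mzb1 in none of these runs. The members' median log2 difference was 0.29, against 0.00 over all genes. Calls over all genes were 500 higher and 220 lower, with 411 higher and 327 lower after quantile normalization, and 417 higher and 291 lower with arrays centred on their medians.

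Among other regulators that favour plasma-cell fate, the widest log2 fold change was 0.48. Of 10 measured, 3 rose and 0 fell by limma (5 and 0 at an unadjusted p under 0.05), with a median log2 fold change of 0.17. Over all genes 2.51% rose and 1.10% fell, with a median of 0.00. The groups did not overlap for 6 of the 10 regulators, beside 20.0% of all genes in either direction. Irf4, which in high dose drives plasma-cell differentiation, read 1972, 1970 and 1988 in Blnk samples and 1430, 1555 and 1501 in pMIG samples. The groups were apart by 0.40 on the log2 scale (SE 0.07, limma adjusted p = 0.0164). Pou2f2 (OCT2), an octamer-binding factor of B cells, rose by 0.48 (limma adjusted p = 0.00850), and Ikzf3 (Aiolos) by 0.39 (limma adjusted p = 0.0447). Pou2af1, the OCT coactivator OBF-1, was bright and stood at 0.12 (limma adjusted p = 0.493). Ern1, which splices Xbp1 mRNA, averaged 171 ± 8.62 in Blnk samples and 162 ± 7.21 in pMIG samples (SD, n = 3 each; limma adjusted p = 0.715), and Bhlha15 (MIST1), a factor downstream of XBP1, averaged 64.3 ± 6.03 and 74.0 ± 4.58 (SD, n = 3 each; limma adjusted p = 0.347). The count was 2 without pMIG 2, 1 without pMIG 1 or any 1 Blnk array, and 0 without pMIG 3.

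Surface markers of plasma cells other than the members gave a mixed picture. By limma 2.51% of all genes rose and 1.10% fell. Of 19 markers measured, 5 rose and 0 fell (5 and 2 at an unadjusted p under 0.05), with a median of 0.10. Those that rose were the gut-homing receptor Ccr9 (0.85), the integrin chains Itgb7 (0.57) and Itga4 (0.40), Tnfrsf13b (TACI, 0.38), a receptor for the same ligands as BCMA, and the inhibitory receptor Tigit (0.37), with limma adjusted p between 0.00959 (Ccr9) and 0.0328 (Tigit). Ccr9 was dim, at 55.7 ± 8.62 in Blnk samples and 30.7 ± 2.89 in pMIG samples (SD, n = 3 each). The widest fall of the list was in Cd28, at 126 ± 23.2 in Blnk samples and 175 ± 2.08 in pMIG samples (SD, n = 3 each). Its groups did not overlap, and the log2 fold change was -0.49 (limma adjusted p = 0.0852). The brightest of the list, the chemokine receptor Cxcr4 and the C1q receptor-like protein Cd93, stood at 0.11 (limma adjusted p = 0.536) and -0.01 (limma adjusted p = 0.955). Slamf7, a marker of plasma cells in human myeloma, averaged 2044 in Blnk samples and 2009 in pMIG samples (log2 fold change 0.03, SE 0.06, n = 3 each; limma adjusted p = 0.904). The count of 5 was 3 without Blnk 1, 1 without Blnk 3, pMIG 1 or pMIG 2, and 0 without Blnk 2 or pMIG 3, and 1 gene was lower without Blnk 3.

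**Figure D3:**
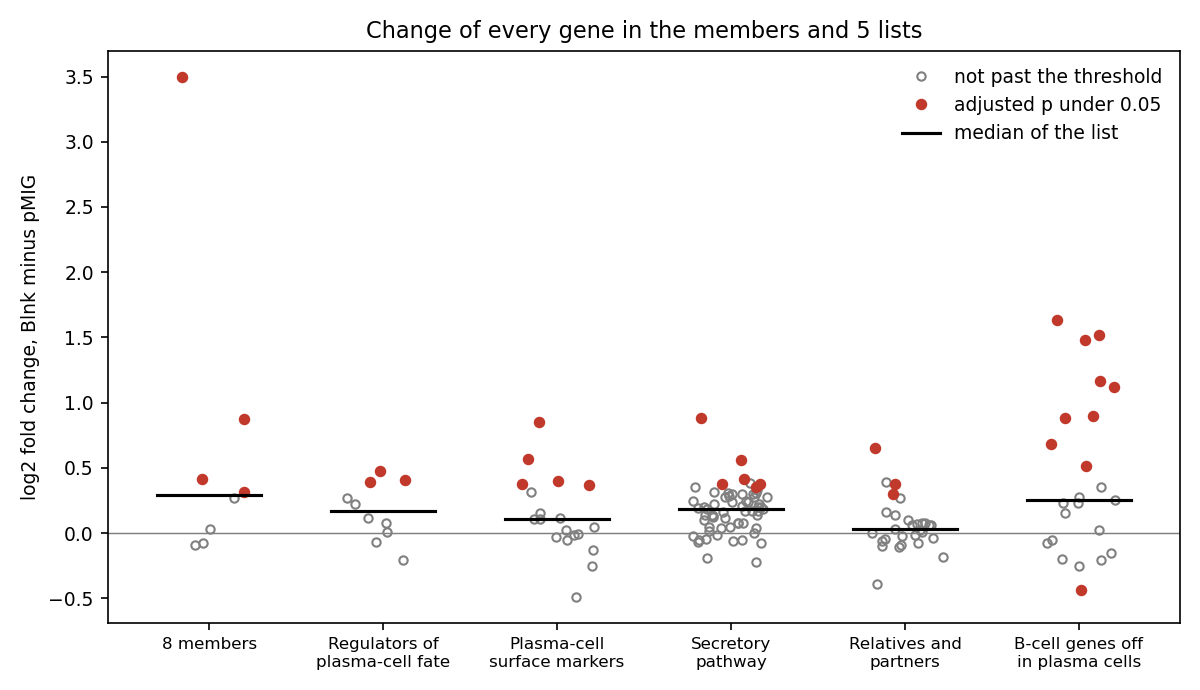
Log2 fold change (vertical axis, Blnk minus pMIG) of every measured gene in the 8 members and 5 lists (horizontal axis). Filled points passed an adjusted p of 0.05 in limma, open points did not, and black lines are medians. The 9 rises among B-cell genes that are off in plasma cells reach 1.64, and the highest value in the other 4 lists is 0.88.

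Secretory-pathway genes, many of them XBP1 targets, were mostly slightly higher in Blnk samples. Of 62 measured, 6 rose and 0 fell by limma (28 and 1 at an unadjusted p under 0.05), where 2.51% of all genes rose and 1.10% fell. In all, 52 of the 62 were higher, where 50.4% of all genes were, and the count was 46 after quantile normalization and 50 with arrays centred on their medians. The median was 0.18, and 37 of the 62 had groups that did not overlap, beside 20.0% of all genes in either direction. Without any 1 array, 2 of these genes were called higher. A variance prior that follows intensity gave 22, and with it 1021 of all 19938 genes were called higher.

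The widest secretory change was in Txndc11, a thioredoxin-related protein of the endoplasmic reticulum, which read 678, 673 and 647 in Blnk samples and 360, 363 and 359 in pMIG samples. Its groups were far apart for their spread, by 0.88 on the log2 scale (SE 0.06, limma adjusted p = 0.000284). Txndc5, a disulphide isomerase, read 1427, 1312 and 1365 in Blnk samples and 931, 907 and 945 in pMIG samples, a log2 fold change of 0.56 (limma adjusted p = 0.00393). Both were called with each array left out in turn, which holds for none of the 4 others that rose. These were the signal peptidase subunit Sec11c (0.41), the chaperone Hsp90b1 (0.38), the calcium regulator Wfs1 (0.38) and the degradation factor Edem1 (0.36), with limma adjusted p between 0.0158 (Sec11c) and 0.0368 (Edem1). The chaperone Hspa5 (BiP) stood at 0.29 (limma adjusted p = 0.0789) and Dnajb9, a well-known XBP1 target, at 0.39 (limma adjusted p = 0.144). Tram1, a translocation protein and one of the brightest of the list, stood at 0.13 (limma adjusted p = 0.406).

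**Figure D4:**
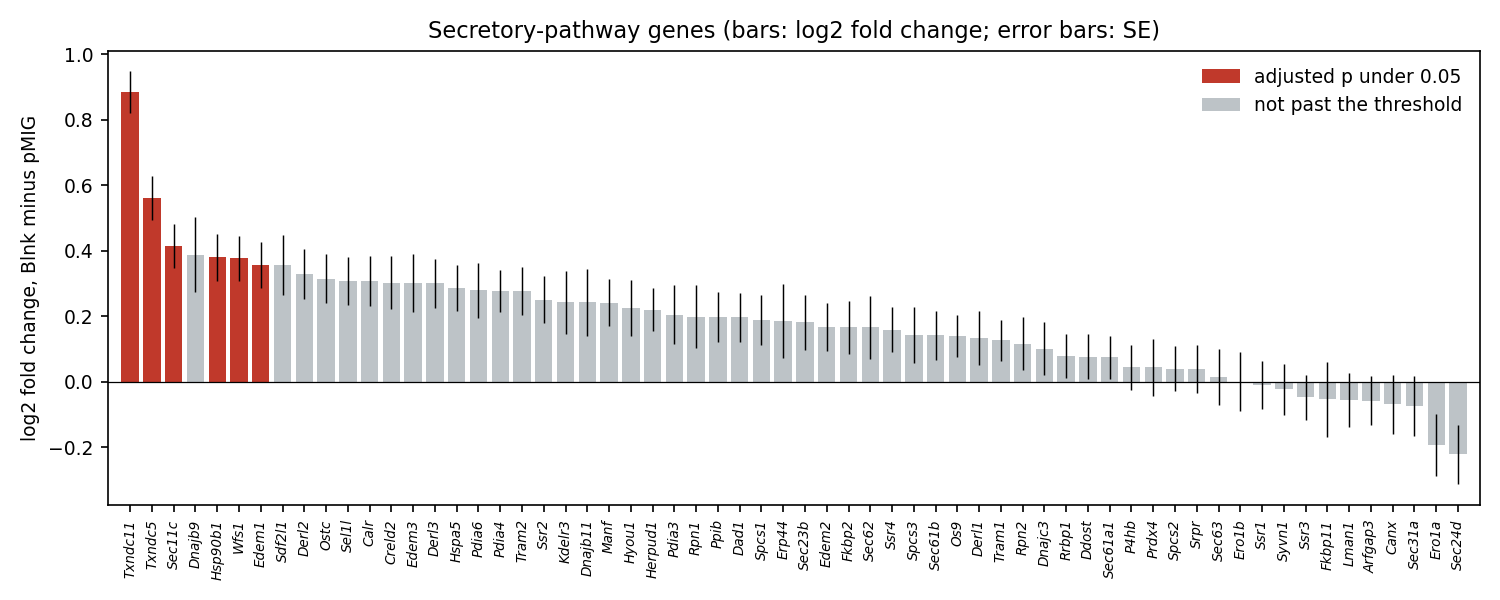
Log2 fold change (vertical axis, Blnk minus pMIG) of the 62 secretory-pathway genes in falling order (horizontal axis). Bars are differences of group means, error bars are SE from limma, and red bars passed an adjusted p of 0.05. Values run from 0.88 for Txndc11 to -0.22 for Sec24d, and 6 bars are red.

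Most of the closest relatives and partners of the members did not pass the threshold. Of 29 measured, 3 rose and 0 fell by limma (5 and 2 at an unadjusted p under 0.05), where 2.51% of all genes rose and 1.10% fell. The median of the list was 0.03, and it lay at -0.0044 with arrays centred on their medians. Of the relatives of Tnfrsf17, the BAFF receptor Tnfrsf13c read 711, 699 and 819 in Blnk samples and 443, 479 and 497 in pMIG samples. Its groups were apart by 0.65 on the log2 scale (limma adjusted p = 0.00718), and it was called with each array left out. Tnfrsf13b rose as given above, and Tnfsf13b, the ligand BAFF, averaged 35.0 ± 3.61 in Blnk samples and 37.3 ± 1.53 in pMIG samples (SD, n = 3 each). Of the relatives of Creb3l2, Creb3 rose by 0.30 (limma adjusted p = 0.0414), and Creb3l1, Creb3l3 and Creb3l4 were dim and did not pass. The Ell2 relatives Ell and Ell3 stood at 0.0012 and 0.16, and their partners Eaf1 and Eaf2 at -0.05 and 0.39, none of them past the threshold. Syndecans 2 to 4 (Sdc2, Sdc3 and Sdc4) had log2 fold changes between -0.09 and 0.03. Cdk9, a kinase of the elongation complex that ELL2 joins and the brightest of the list, stood at 0.06 (limma adjusted p = 0.720). With any 1 array left out, 1 relative was called higher, and 1 was called lower without pMIG 1.

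Of the heavy chains that the J chain links in secreted antibody, Ighm read close to the array medians and Igha below them. Ighm averaged 74.3 ± 3.51 in Blnk samples and 67.3 ± 1.53 in pMIG samples (SD, n = 3 each; limma adjusted p = 0.397). Igha averaged 35.0 in Blnk samples and 46.3 in pMIG samples (log2 fold change -0.39, SE 0.12, n = 3 each; limma adjusted p = 0.147). Both were read by their brightest single-gene probe, of 3 for Ighm and 2 for Igha. Probes naming several genes were left out, so these levels hold for the probes used. The receptor Pigr, which carries J-chain-linked antibody across epithelia, stood at -0.11 (limma adjusted p = 0.720). None of these 3 partners passed the threshold.

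Of the B-cell genes that are switched off in plasma cells, more rose than fell. Of 23 measured, 9 rose and 1 fell by limma (13 and 4 at an unadjusted p under 0.05), with a median of 0.26, and 16 of 23 were higher in Blnk samples. Over all genes 2.51% rose and 1.10% fell, and 50.4% were higher. The groups did not overlap for 17 of the 23, beside 20.0% of all genes in either direction. H2-Aa, a class II antigen-presenting chain, read 884, 929 and 833 in Blnk samples and 279, 308 and 265 in pMIG samples. The groups were apart by 1.64 on the log2 scale (SE 0.08, limma adjusted p = 6.44e-05). The inhibitory receptor Btla rose by 1.48, the invariant chain Cd74 by 1.16, the ETS factor Spib by 1.12, the chemokine receptor Cxcr5 by 0.90 and the kinase Blk by 0.88, and all 6 were called with each array left out. The 1 gene that fell was Myc, at 3240 ± 192 in Blnk samples and 4386 ± 76.9 in pMIG samples (SD, n = 3 each; limma adjusted p = 0.0161), and without any 1 array except Blnk 1 it was not called. Ebf1, an early B-cell factor, averaged 1769 ± 108 in Blnk samples and 2105 ± 78.6 in pMIG samples, and Irf8 averaged 830 ± 25.8 in Blnk samples and 959 ± 3.21 in pMIG samples (SD, n = 3 each). Neither passed (limma adjusted p = 0.142 for Ebf1 and 0.155 for Irf8), and their groups did not overlap. Cd79b, the brightest of the list and partner of Cd79a, stood at 0.35 (limma adjusted p = 0.0616). Pax5, the repressor of Jchain in B cells, averaged 2975 ± 171 in Blnk samples and 3084 ± 63.7 in pMIG samples (SD, n = 3 each; limma adjusted p = 0.803). Bach2, a repressor of Prdm1, stood at -0.20 (limma adjusted p = 0.302), with groups that did not overlap. Bcl6, another such repressor, stood at 0.15 (limma adjusted p = 0.528), and its groups overlapped.

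Of genes with a mean log2 intensity of at least 6, those whose pattern over the 6 arrays was most like Jchain were Ptprj (Pearson r = 0.999), a receptor-type phosphatase also called CD148, Ptpn1 (0.999), a phosphatase of the endoplasmic reticulum, Birc3 (0.999), an inhibitor of apoptosis, Rftn1 (0.999), a lipid-raft protein of B cells, and Mon1b (0.998), a protein of endosome traffic. They came from 10355 candidates, and the step between groups enters the correlation over 6 arrays. With group means taken out, r with Jchain was 0.993, 0.965, 0.939, 0.963 and 0.960 in the same order. As the genes were picked by their correlation on these arrays, nothing is read from these values. The genes had log2 fold changes of 0.89, 0.46, 0.43, 0.55 and 0.21 in the same order, all well below the 3.50 of Jchain.

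Markers of other cell types gave at most 1 call per list, where 2.51% of all genes rose and 1.10% fell. By limma 1 of 15 T and NK markers rose, Cd2 (0.73), also found on B-lineage cells, and the summed intensity of the list ran from 2923 to 3484 in Blnk samples and from 2149 to 2276 in pMIG samples. Cd2 alone averaged 2355 in Blnk samples and 1415 in pMIG samples, the other 14 summed to 804 to 879 in Blnk samples and 753 to 862 in pMIG samples, and the list's median log2 fold change was 0.01. Of 16 myeloid markers 1 rose, the Fc receptor Fcgr1 (0.74), with sums of 767 to 833 in Blnk samples and 639 to 672 in pMIG samples, and without Fcgr1 532 to 575 in Blnk samples and 500 to 515 in pMIG samples. Of 14 stromal and endothelial markers 1 rose, Pecam1 (0.64), with sums of 1375 to 1489 in Blnk samples and 1105 to 1220 in pMIG samples. Pecam1 alone averaged 767 in Blnk samples and 493 in pMIG samples, and the other 13 summed to 637 to 719 in Blnk samples and 598 to 753 in pMIG samples. Of 6 erythroid markers 0 passed by limma, also at an unadjusted p under 0.05, with sums of 3728 to 4047 in Blnk samples and 4158 to 4187 in pMIG samples. Most of these sums came from Tfrc, which alone averaged 3575 in Blnk samples and 3904 in pMIG samples. Of the brightest markers, Cd8a of T cells stood at 0.12, Cd68 of macrophages at 0.59, the transferrin receptor Tfrc at -0.13, the red-cell anion exchanger Slc4a1 at -0.03 and the collagen Col1a1 at -0.12 (limma adjusted p between 0.0866 for Cd68 and 0.949 for Slc4a1). No marker is listed at 0, since the lowest value on any array is 3, and their part in the higher Jchain signal was not tested.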

How the data were processed

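Total RNA of 3 Blnk and 3 pMIG samples was measured on 1 Affymetrix array each. The authors' deposited table holds linear intensities, whole numbers from 3 to 22187. The submitters' processing notes name RMA, with its version not given in the sources used here. From the values alone, these appear to be RMA output put back on a linear scale and rounded. No detection calls were used here. Precision is limited by the number of arrays.

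Of 35421 probes, 21789 had 1 gene symbol, 1621 several and 12011 none in the platform annotation. The brightest single-gene probe stood for each of 19938 genes. Log2 intensities, with nothing added, were fitted on the group alone with limma 3.58.1 (lmFit, eBayes; R 4.3.3), using Benjamini-Hochberg adjustment over all genes and a two-sided threshold of 0.05. The fit was tested on simulated data. SE and intervals are limma's; SD are of linear intensities.

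The members, the lists and the search motifs were chosen with earlier results of these data known. Of 220 list entries 204 were measured, 2 through a synonym, and the rest were not analysed here. Tnfrsf13b, Atf6, Ern1, Cd79b, Ebf1, Pax5 and Thy1 stand in 2 lists. By the rule for names, the text names the members, of each pathway list the called genes with the smallest adjusted p (up to 6) and the 2 brightest, of each list of other cell types the 2 brightest, and the 5 genes most like Jchain; any relative (Ern1 is one) may be named. Pre-B markers are outside that rule. Vpreb1, Igll1, Cd79a, Rag1, Dntt, Myc, Pax5, Ebf1, Irf8, Bach2, Bcl6, Bhlha15, Slamf7, Cd28, Hspa5, Dnajb9 and Sec24d were named after their values were seen. The alternatives were a replicate block, quantile normalization, median centring, a filter on dim genes, the mean of probes, an added intensity of 16, another variance prior and each array left out.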

Additional observations from a re-analysis of the deposited data

How the results depend on the processing

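The Jchain log2 difference was 3.04 with 16 added to each intensity, which shrinks dim values by construction. Every other member moved by less than its spread between replicates in each alternative run, and no called member changed direction. Prdm1 and Tnfrsf17 had no value once genes under the 40th percentile were left out. The count of called genes was 289 with the replicate block, 1228 (of 11963 tested) without dim genes, 1100 with 16 added and 1539 with an intensity trend and robust prior. It ran from 267 to 437 with 1 array left out. Members called were 2 with the replicate block (Jchain and Ell2), 3 after quantile normalization and 3 with centred arrays (Mzb1 not called under either scaling). They were 2 to 3 with 1 array left out, and the choice of members bears on these counts. Samples with the same replicate number had deviations correlating at -0.19, 0.06 and -0.12, and those with different numbers at -0.21 to 0.28. With so few arrays, these values cannot tell whether samples of the same number were paired. The labels do not say what the number stands for. The block also left 0 regulators higher, 1 surface marker, 2 secretory genes, 1 relative and 0 B-cell genes lower.

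Regulators called higher were 5 with the trend prior and 0 to 2 with 1 array left out. B-cell genes called lower were 3 with the trend prior and 0 to 1 with 1 array left out. Surface markers called higher were 3 after quantile normalization and 0 to 3 with 1 array left out, and 1 was called lower with centred arrays, without dim genes, with 16 added and with the trend prior, and 0 to 1 with 1 array left out. Secretory genes called higher were 17 without dim genes, 15 with 16 added, 22 with the trend prior and 2 with any 1 array left out. Calls higher over all genes were 807 of 11963 tested without dim genes, 741 of 19938 with 16 added and 1021 of 19938 with the trend prior. They were 195 to 304 with 1 array left out. Relatives called higher were 1 after quantile normalization and 1 with any 1 array left out, and 0 to 1 were lower. The cause of these changes was not tested, beyond the smaller number of arrays or genes. Dim members are limited by whole-number rounding.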
